A study of Mus musculus with 12 samples.

Results

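P2X receptors are ATP-gated cation channels, and the mouse genes for them are P2rx1 to P2rx7. These 7 genes were chosen by their symbols and not by any measured value, although earlier results of these data were known. The 7 were found among the 24490 gene rows of the expression table. A functional channel is an assembly of several subunits around a pore that opens when extracellular ATP binds, and lets sodium and calcium in. In sensory neurons the P2X3 subunit, alone or combined with P2X2, is known for carrying fast responses to ATP released from damaged or stretched tissue, whereas P2X4 and P2X7 are best known from immune cells and glia. P2X1 is known from smooth muscle and platelets, and P2X5 and P2X6 are the least understood members.

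Polyadenylated RNA was sequenced from dorsal root ganglia (DRG), the clusters of sensory neuron cell bodies beside the spinal cord, of adult male C57Bl/6 mice, with 4 samples in each of 3 preparations. Intact samples were whole ganglia of 1 mouse, frozen without dissociation. Unsorted samples, which the labels call dissociated, were enzymatically dissociated ganglia of 2 mice. MACS-sorted samples were dissociated ganglia of 8 mice, passed over a magnetic column that holds back cells bound by antibodies to non-neuronal cells, so that the cells flowing through were collected. The labels name no transgene or drug treatment for these 12 samples, all spinal levels were pooled, and samples of different preparations differ in the number of mice behind them as well as in the handling. The values are FPKM, fragments scaled to transcript length and to the mapped total of the library, and can be compared between genes because they are divided by length. In these bulk samples, fewer cells of a type and less RNA per cell cannot be told apart.

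Marker genes were checked first. In MACS-sorted against unsorted samples, tested with limma at an adjusted p under 0.05, 7 of 8 non-peptidergic nociceptor genes were higher (median log2 difference 0.97), as were 3 of 8 pan-neuronal genes (2 lower, median 0.23) and 2 of 6 peptidergic nociceptor genes (2 lower, median 0.05). Lower were 7 of 7 large-diameter neuron genes (median −3.15), 7 of 7 satellite glia genes (−6.51), 6 of 7 Schwann cell genes (−4.21), and each tested gene for macrophages (4, −4.60), smooth muscle (4, −4.73) and platelets (1, −4.32). Macrophage, smooth muscle and platelet genes reached the level for testing through the unsorted samples only, so that lower values were built into their counts, and among the untested genes Ptprc and Gp9 had higher means after sorting (1.03 against 0.634 FPKM and 0.270 against 0.0217 FPKM). Of 6 endothelial genes 0 passed, also at an unadjusted p under 0.05, with a median of −0.52, and no skeletal muscle gene reached the level for testing in this comparison. Each of the 7 tested rows for red blood cell genes was higher (median 4.43), and that list summed to 1678 to 15360 FPKM in MACS-sorted samples against 112 to 400 FPKM in unsorted ones. Single samples differed from their group: intact replicate 1, with skeletal muscle genes summing to 2410 FPKM against 13.3 to 53.7 FPKM in the other intact samples, MACS-sorted replicate 4, with the highest Schwann cell sum of its group (1209 FPKM against 518 to 593), and MACS-sorted replicate 2, with the lowest endothelial sum (11.4 against 44.0 to 68.1 FPKM). The red blood cell sum was 12538 and 15360 FPKM in MACS-sorted replicates 3 and 4 and 1678 and 2532 FPKM in replicates 1 and 2. Pan-neuronal genes were detected in every sample, at sums of 4246 to 6600 FPKM.

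P2rx3 was by far the most abundant member in every preparation and, with P2rx2, was higher after sorting. P2rx3 encodes the subunit that defines many non-peptidergic nociceptors, and it lies on chromosome 2 of mm10, chr2:84996552-85035834, on the minus strand with 12 exons in its longest coding transcript. It was measured at 103, 101, 97.8 and 99.3 FPKM in intact replicates 1 to 4, a mean of 100.3 ± 2.14 FPKM (SD, n = 4). Unsorted replicates 1 to 4 had 91.5, 91.5, 93.6 and 86.7 FPKM, a mean of 90.8 ± 2.89 FPKM (SD, n = 4). MACS-sorted replicates 1 to 4 had 193, 185, 175 and 112 FPKM, a mean of 166 ± 36.7 FPKM (SD, n = 4). The MACS-sorted samples all lay above the unsorted and intact ones, with replicate 4 lower than the rest of its group. The mean was 1.83-fold that of unsorted samples, and the difference on the log2(FPKM + 0.1) scale, used for every test below, was 0.84 (SE 0.15, limma, Benjamini-Hochberg adjusted p = 0.0016). Without MACS-sorted replicate 4 the log2 difference was 1.02.

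P2rx2, which encodes the subunit that joins P2X3 in channels with a slower decay, is a short gene of 11 exons on the minus strand of chromosome 5, chr5:110339812-110343035. Its level was 2.63, 2.31, 1.86 and 1.66 FPKM in intact replicates 1 to 4 and 1.25, 1.96, 1.68 and 1.44 FPKM in unsorted replicates 1 to 4. In MACS-sorted replicates 1 to 4 it was 7.62, 4.49, 3.77 and 4.58 FPKM. Every MACS-sorted sample exceeded every sample of the other preparations, and replicate 1 was the highest. The MACS-sorted mean of 5.11 ± 1.71 FPKM was 3.23-fold the unsorted mean of 1.58 ± 0.310 FPKM (SD, n = 4 each; log2 difference 1.60, SE 0.23, limma, Benjamini-Hochberg adjusted p = 3.1e-04).

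Whether P2rx2 rose more than P2rx3 was tested on their ratio within each sample. P2rx3 exceeded P2rx2 39.0, 43.9, 52.5 and 59.9 times in intact replicates 1 to 4, 73.4, 46.5, 55.8 and 60.1 times in unsorted replicates 1 to 4, and 25.3, 41.2, 46.5 and 24.5 times in MACS-sorted replicates 1 to 4. The highest MACS-sorted ratio nearly equalled the lowest unsorted one, and with the pseudocount of 0.1 added to both genes the groups overlapped. On that scale the log2 ratio was lower by 0.76 in MACS-sorted than in unsorted samples, which did not pass a two-sided exact permutation test (p = 0.0571, adjusted over the 3 comparisons 0.171, smallest possible p 0.0286). Between unsorted and intact samples it differed by 0.25 (exact permutation p = 0.229), and between MACS-sorted and intact samples by −0.51 (exact permutation p = 0.143, adjusted 0.214). A difference in 1 comparison alone could not have passed after adjustment over 3, even at the smallest possible p. Whether 1 of the 2 subunits changed more thus stays undecided with 4 samples a group. P2rx3 transcripts outnumbered P2rx2 transcripts 24.5-fold to 73.4-fold per length over the 12 samples.

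**Figure D1:**
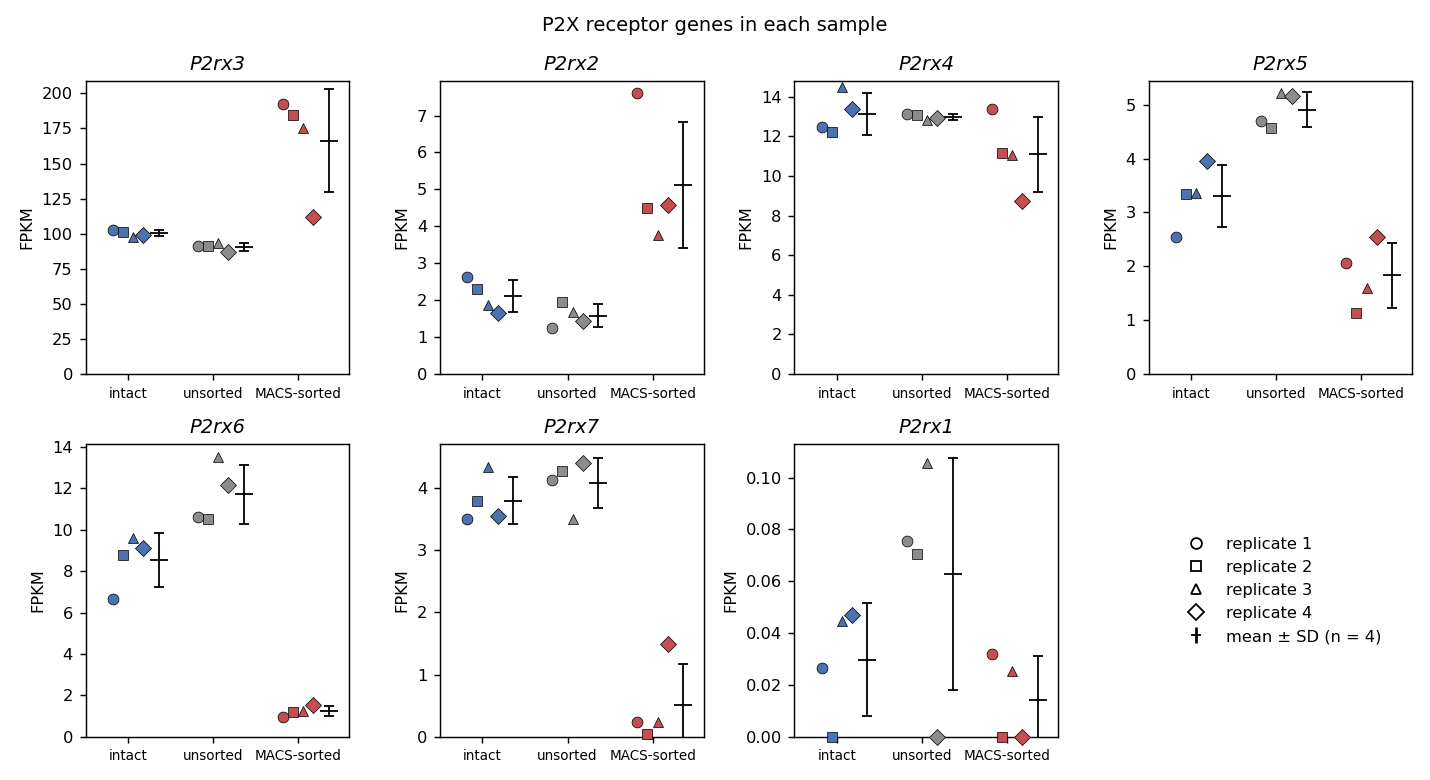
Level of each P2X gene in FPKM (vertical axes, linear, starting at 0) in the 4 intact, 4 unsorted and 4 MACS-sorted samples. Symbols mark the replicate and black bars the mean ± SD, with the part of a bar below 0 not drawn. P2rx3 and P2rx2 are highest in MACS-sorted samples, P2rx5, P2rx6 and P2rx7 are lowest there, and P2rx4 stays between 8.75 and 14.5 FPKM.

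P2rx4 was the second most abundant member by mean and the one tested member that passed in none of the 3 comparisons. Its product is a channel with high calcium permeability that is found on many cell types and is well known from microglia and macrophages. The gene lies on the plus strand of chromosome 5, chr5:122707557-122729042, with 12 exons. Its level was 12.5, 12.2, 14.5 and 13.4 FPKM in intact replicates 1 to 4, and 13.1, 13.1, 12.8 and 12.9 FPKM in unsorted replicates 1 to 4. In MACS-sorted replicates 1 to 4 it was 13.4, 11.1, 11.1 and 8.75 FPKM. MACS-sorted replicate 1 lay above every unsorted sample and replicates 2 to 4 below, so that the groups overlapped. The log2 difference between MACS-sorted and unsorted samples was −0.24 (95% interval −0.50 to 0.02, limma, Benjamini-Hochberg adjusted p = 0.115), and without MACS-sorted replicate 1 it was −0.34 and passed (adjusted p = 0.022). The interval therefore leaves room for a moderate decrease and hardly any for an increase. For the macrophage markers the MACS-sorted sums were 1.37 to 4.65 FPKM against 13.9 to 28.0 FPKM in unsorted and 43.0 to 89.2 FPKM in intact samples. The endothelial list summed to 11.4 to 68.1 FPKM and the pan-neuronal list to 5067 to 6600 FPKM in the same MACS-sorted samples. Which cells the P2rx4 values of 8.75 to 13.4 FPKM come from was not tested.

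P2rx6 and P2rx5 were both lower in MACS-sorted samples, P2rx6 the more strongly. P2X6 subunits rarely form channels on their own and are known to combine with P2X2 or P2X4 subunits. P2rx6 lies on the plus strand of chromosome 16, chr16:17561885-17572012, with 12 exons. It was at 6.64, 8.78, 9.62 and 9.13 FPKM in intact replicates 1 to 4 and at 10.6, 10.5, 13.5 and 12.2 FPKM in unsorted replicates 1 to 4. MACS-sorted replicates 1 to 4 had 0.976, 1.21, 1.27 and 1.53 FPKM. No MACS-sorted sample came near the lowest sample of the other preparations. The mean fell from 11.7 ± 1.42 to 1.24 ± 0.226 FPKM (SD, n = 4 each), 9.41-fold lower, with a log2 difference of −3.14 (SE 0.15, limma, Benjamini-Hochberg adjusted p = 5.1e-07). A pseudocount of 1 in place of 0.1 shrank the log2 difference to −2.50.

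P2rx5, whose product forms channels of its own and is known from skeletal muscle and other tissues, lies on chromosome 11, chr11:73160530-73172687, with 13 exons on the plus strand. Its level was 2.54, 3.35, 3.36 and 3.95 FPKM in intact, 4.69, 4.57, 5.21 and 5.16 FPKM in unsorted, and 2.07, 1.13, 1.60 and 2.54 FPKM in MACS-sorted replicates 1 to 4. MACS-sorted samples lay below all unsorted ones, while the highest MACS-sorted value, in replicate 4, was just under the lowest intact value, in replicate 1. The mean was 2.68-fold lower than in unsorted samples (1.84 ± 0.604 against 4.91 ± 0.324 FPKM, SD, n = 4 each; log2 difference −1.43, SE 0.22, limma, Benjamini-Hochberg adjusted p = 4.9e-04). P2rx6 exceeded P2rx5 2.26 to 2.86 times in the intact and unsorted samples together and 0.472 to 1.06 times in MACS-sorted samples, so that these ranges did not overlap.

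P2rx7 was close to 0 in 3 of the 4 MACS-sorted samples. P2X7 is the member that opens only at high ATP and is known for its long intracellular tail and for cytokine release from macrophages, and it is also reported on satellite glia of sensory ganglia. The gene lies on the plus strand of chromosome 5, chr5:122643911-122691432, with 13 exons, and a microRNA gene, Mir8115, lies within it. It was at 3.51, 3.79, 4.34 and 3.55 FPKM in intact replicates 1 to 4 and at 4.13, 4.28, 3.50 and 4.41 FPKM in unsorted replicates 1 to 4. MACS-sorted replicates 1 to 4 had 0.243, 0.0410, 0.239 and 1.499 FPKM. These values lie below every unsorted and intact value, and replicate 4 is several times above the rest of its group. The mean of 0.506 ± 0.669 FPKM was 8.07-fold lower than the unsorted mean of 4.08 ± 0.401 FPKM (SD, n = 4 each), with a log2 difference of −3.37 (SE 0.61, limma, Benjamini-Hochberg adjusted p = 0.0014). The size of this difference depended on the scale and on 1 library: it was −4.04 without MACS-sorted replicate 4, −4.24 without replicates 3 and 4, −1.84 with a pseudocount of 1 and −2.77 after quantile normalization. P2rx7 reached the level for testing through the unsorted samples, since its MACS-sorted mean is under 1 FPKM.

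P2rx7 and P2rx4 are neighbours in the same orientation, with 16.1 kb between the end of the first and the start of the second. P2rx7 fell after sorting and P2rx4 did not pass, and the difference between them was not tested. P2rx1 and P2rx5 are also neighbours, 145.3 kb apart on chromosome 11. Sequence of 250 bases just before an annotated start was matched for 4 of the 7 members (RefSeq, GRCm38.p6). The windows of P2rx7 (chr5:122643677-122643926), P2rx4 (chr5:122707294-122707543) and P2rx6 (chr16:17561635-17561884), all plus strand and 5′ to 3′, are shown because P2rx7 and P2rx6 fell most and P2rx4 is the neighbour that did not pass; capitals mark motif matches.
P2rx7: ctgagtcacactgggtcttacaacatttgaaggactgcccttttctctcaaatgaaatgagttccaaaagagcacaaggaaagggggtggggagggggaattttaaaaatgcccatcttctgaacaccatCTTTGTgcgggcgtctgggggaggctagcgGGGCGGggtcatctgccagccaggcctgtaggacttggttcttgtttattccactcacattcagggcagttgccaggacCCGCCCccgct
P2rx4: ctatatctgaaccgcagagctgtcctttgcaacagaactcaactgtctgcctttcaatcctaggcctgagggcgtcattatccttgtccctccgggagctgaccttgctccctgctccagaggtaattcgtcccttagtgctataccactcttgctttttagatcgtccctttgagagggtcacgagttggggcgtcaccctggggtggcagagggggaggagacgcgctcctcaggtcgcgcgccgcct
P2rx6: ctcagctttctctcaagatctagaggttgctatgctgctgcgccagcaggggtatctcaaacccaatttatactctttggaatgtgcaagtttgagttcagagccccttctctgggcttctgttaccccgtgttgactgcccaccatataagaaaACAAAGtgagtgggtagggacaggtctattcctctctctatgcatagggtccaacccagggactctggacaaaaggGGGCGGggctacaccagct

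The 4 motifs searched on both strands were GGGCGG (GC box), ACAAAG (SOX core), TGTGGT (RUNX core) and CAGCTG (an E-box). The P2rx7 window held GGGCGG at bases 90 to 85 and, as CCGCCC, at bases 11 to 6 before the start, and ACAAAG on the other strand (CTTTGT) at bases 120 to 115. The P2rx6 window held GGGCGG at bases 19 to 14 and ACAAAG at bases 95 to 90 before the start. The P2rx4 and P2rx1 windows held none of the 4, nor did the window of a second annotated P2rx7 start, chr5:122650133-122650382. The RefSeq starts of P2rx7 and P2rx4 lie a few bases from the deposited gene starts. Of 32817 windows of the same length, 32.7% held GGGCGG, 16.5% ACAAAG, 14% TGTGGT and 13% CAGCTG on either strand, so these are common letters and the matches are a description only.

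P2rx1 was at the limit of measurement in every preparation. It lies on the plus strand of chromosome 11, chr11:72999145-73015197, with 12 exons. The intact samples had 0.0266, 0, 0.0448 and 0.0472 FPKM, the unsorted samples 0.0754, 0.0706, 0.105 and 0 FPKM, and the MACS-sorted samples 0.0321, 0, 0.0253 and 0 FPKM, each in the order of replicates 1 to 4. With the depth estimated from the spacing of low values, 1 fragment of this gene is worth 0.0222 to 0.0319 FPKM, so these values correspond to a few fragments at most. The gene was under the level for testing across all genes, and exact permutation tests of the mean FPKM gave p = 0.143, 0.257 and 0.314 (adjusted 0.314 each) for MACS-sorted against unsorted, unsorted against intact and MACS-sorted against intact samples. A difference was not detectable at this depth.

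Counted by direction, 2 of the 6 tested members were higher and 3 lower in MACS-sorted than in unsorted samples at an adjusted p under 0.05 from limma, where 18.8% of the 12038 genes tested were higher and 27.7% lower. A gene was called if, besides, the log2 ratio of its means was beyond 0.5 and its higher mean exceeded 5 FPKM, and P2rx3, P2rx2 and P2rx6 met this rule. By that rule 8.15% of genes were called higher and 12.5% lower. P2rx5 and P2rx7 did not meet it, because no group mean of theirs reached 5 FPKM. Groups that do not overlap were common in this comparison, with 18.4% of genes wholly higher and 27.8% wholly lower in MACS-sorted samples, and 5 of the 6 tested members were among them.

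**Figure D2:**
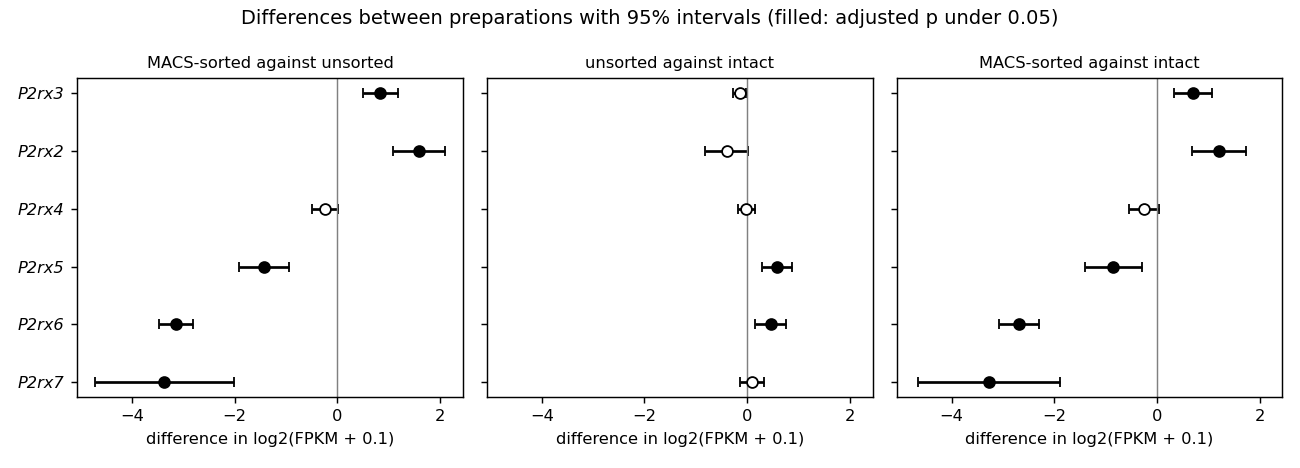
Difference in mean log2(FPKM + 0.1) for the 6 tested P2X genes (horizontal axes) in the 3 comparisons, with 95% limma intervals from 4 samples a group. Filled points have an adjusted p under 0.05. P2rx3 and P2rx2 lie right of 0 and P2rx5, P2rx6 and P2rx7 left of 0 in both comparisons that involve MACS-sorted samples, with P2rx4 crossing 0 throughout.

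Fewer members passed between dissociated, unsorted DRG and intact ganglia. Unsorted and intact samples, which are also the reference of the other comparisons, differed in 2 of the 6 tested members, both higher after dissociation, where 14.8% of 12392 genes were higher and 7.79% lower. P2rx5 was higher in all 4 unsorted samples than in any intact one, with means of 4.91 and 3.30 FPKM (log2 difference 0.57, SE 0.13, limma, Benjamini-Hochberg adjusted p = 0.0163). P2rx6 was also higher in all unsorted samples, with means of 11.7 and 8.54 FPKM (log2 difference 0.46, SE 0.13, limma, adjusted p = 0.0363). Neither met the rule for a called gene, by which 4.29% of genes were higher and 2.76% lower. Both results are near the threshold. Beside them, 5 of 7 large-diameter neuron genes were higher in unsorted samples (sums of 832 to 1024 against 583 to 775 FPKM). The 775 FPKM are those of intact replicate 1, where Pvalb had 441 FPKM against 61.8 to 67.8 FPKM in the other intact samples. Also higher were 6 of 6 endothelial and 4 of 7 satellite glia genes, while 8 of 9 tested macrophage and 5 of 6 skeletal muscle genes were lower. Each skeletal muscle gene and Aif1, Cx3cr1 and Cd163 of the macrophage list averaged under 1 FPKM in unsorted samples. They reached the level for testing through the intact samples, so that lower values were built into these counts. The part of these cell types in the P2X differences was not tested. P2rx6 did not pass in 6 of the 8 fits with 1 sample left out, namely without intact replicates 2 or 4 or without any 1 of the unsorted samples (adjusted p 0.0566 to 0.0939), and after removal of the red blood cell list and rescaling neither P2rx5 nor P2rx6 passed (limma adjusted p 0.0558 and 0.112).

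P2rx3 was lower in every unsorted than in every intact sample by a small margin, with a log2 difference of −0.14 that did not pass (95% interval −0.27 to −0.01, limma, Benjamini-Hochberg adjusted p = 0.105) except without intact replicate 1, where the adjusted p was 0.0423. Non-overlap of this kind was found for 20.8% of genes in the upward and 12% in the downward direction. P2rx2 had a log2 difference of −0.39 (limma, adjusted p = 0.155), with overlapping groups. For P2rx4 the difference was −0.01 (95% interval −0.17 to 0.15) and for P2rx7 0.10 (95% interval −0.14 to 0.34), and neither passed. For the bulk level, these intervals leave room for a small difference of P2rx4 and for a rise of P2rx7 of up to 0.34. Changes within a cell type are not bounded by them.

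MACS-sorted samples were also set against intact ganglia, sharing the MACS-sorted samples with the first comparison and the intact samples with the second. In this comparison 2 tested members were higher and 3 lower, where 14.1% of 12234 genes were higher and 20.6% lower. P2rx2 was 2.42-fold higher (log2 difference 1.20, SE 0.23, limma, Benjamini-Hochberg adjusted p = 0.0032) and P2rx3 1.66-fold higher (0.70, SE 0.16, adjusted p = 0.0088). P2rx6 was 6.87-fold lower (−2.69, SE 0.17, limma adjusted p = 7.9e-06), and P2rx7 7.51-fold lower (−3.27, SE 0.61, limma adjusted p = 0.0027). Without MACS-sorted replicate 4 the difference for P2rx7 was −3.94. P2rx5 had a log2 difference of −0.85 (limma, adjusted p = 0.0245), which shrank to −0.29 and did not pass after quantile normalization (adjusted p = 0.279), nor did it pass with the red blood cell list removed (limma adjusted p = 0.0511) or without intact replicates 2, 3 or 4 or MACS-sorted replicate 3 (adjusted p 0.0598 to 0.0748). P2rx4 did not pass (−0.26, 95% interval −0.55 to 0.04, limma adjusted p = 0.168). P2rx2, P2rx3 and P2rx6 were called by the 3 criteria, as were 7.54% of genes upward and 10.7% downward.

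The order of the members changed with the preparation. In intact DRG it ran P2rx3, P2rx4, P2rx6, P2rx7, P2rx5, P2rx2 and P2rx1, in which P2rx7 and P2rx5 overlapped, as did P2rx5 and P2rx2. In unsorted samples P2rx4 and P2rx6 overlapped at the second and the third place, and P2rx5 stood above P2rx7 without overlap. In MACS-sorted samples P2rx2 took the third place behind P2rx3 and P2rx4, with P2rx5, P2rx6 and P2rx7 below it, the neighbours among these overlapping. P2rx1 was last in each preparation. Of the summed FPKM of the 7 genes, P2rx3 made up 74.4% to 78.7% in intact DRG, 70.6% to 73.0% after dissociation and 85.6% to 91.1% after sorting. P2rx4 took 9.25% to 11.02%, 9.84% to 10.5% and 5.49% to 6.68%, and P2rx6 5.09% to 7.32%, 8.36% to 10.4% and 0.450% to 1.17% in the same order of preparations. The sum itself was 130.4 to 131.8 FPKM in intact samples, 123 to 130.4 FPKM in unsorted samples and 131 to 217 FPKM in MACS-sorted samples, the lowest of the last being replicate 4.

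**Figure D3:**
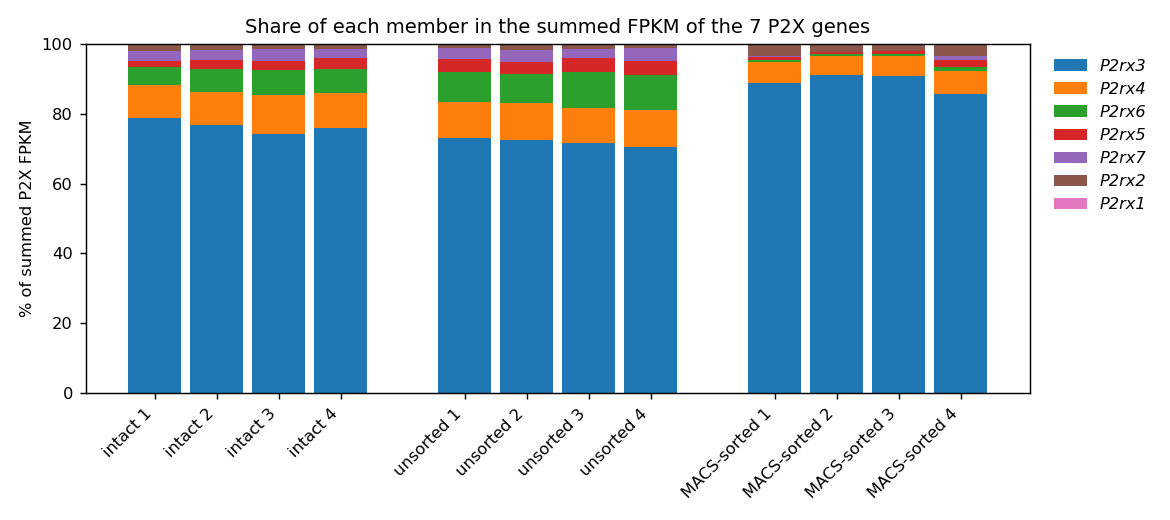
Share of each P2X gene in the summed FPKM of the 7 genes (vertical axis, percent, bars stacked to 100%) for each of the 12 samples. P2rx3 takes 70.6% to 78.7% of the bar in intact and unsorted samples and at least 85.6% in MACS-sorted samples, where the bands of P2rx6, P2rx5 and P2rx7 are thin.

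Markers of cell types moved with the members. The summed non-peptidergic nociceptor list, which does not contain P2rx3, was 467 to 488 FPKM in unsorted and 730 to 1056 FPKM in MACS-sorted samples, and MACS-sorted replicate 4 had the lowest value of its group for this list and for P2rx3. It was also the lowest for the peptidergic nociceptor list (974 against 1317 to 1660 FPKM) and the pan-neuronal list (5067 against 5243 to 6600 FPKM), so this likeness is not particular to non-peptidergic genes. In that sample Mrgprd, a receptor of non-peptidergic nociceptors, was at 59.9 FPKM, whereas MACS-sorted replicates 1 to 3 had 118 to 124 FPKM. The large-diameter neuron list fell from 832 to 1024 FPKM in unsorted to 81.2 to 154 FPKM in MACS-sorted samples, beside P2rx6 and P2rx5. This pairing is not particular to that list. Mean sums of the satellite glia list, 1849, 2472 and 129 FPKM in intact, unsorted and MACS-sorted samples, had the same order as P2rx6 and P2rx5. The satellite glia list fell from 2149 to 2705 FPKM to 89.2 to 190 FPKM beside P2rx7, and its highest MACS-sorted value, like that of P2rx7 and of the Schwann cell list, was in replicate 4. Of the MACS-sorted samples, that one also held the highest sums of the macrophage, smooth muscle, endothelial, skeletal muscle, platelet and red blood cell lists. Most of the glial remainder is Glul, at 82.3 to 111 FPKM, while Slc1a3 was at 0.0141 to 0.0670 FPKM and Kcnj10 at 0.0120 to 0.206 FPKM. In the macrophage list, Csf1r, C1qa, C1qb and C1qc were listed at 0 in at least 1 MACS-sorted sample and reached at most 0.465 FPKM, whereas Cd68 reached 1.09 FPKM in replicate 4, Aif1 had 0.254 to 0.639 FPKM and Ptprc, a general leukocyte gene, had 0.671 to 1.40 FPKM against 0.297 to 1.08 FPKM in unsorted samples. Removal of the red blood cell list with rescaling left P2rx3 at a log2 difference of 0.88 and P2rx7 at −3.33 against unsorted samples. The part of these cell types in the differences of the P2X genes was not tested.

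**Figure D4:**
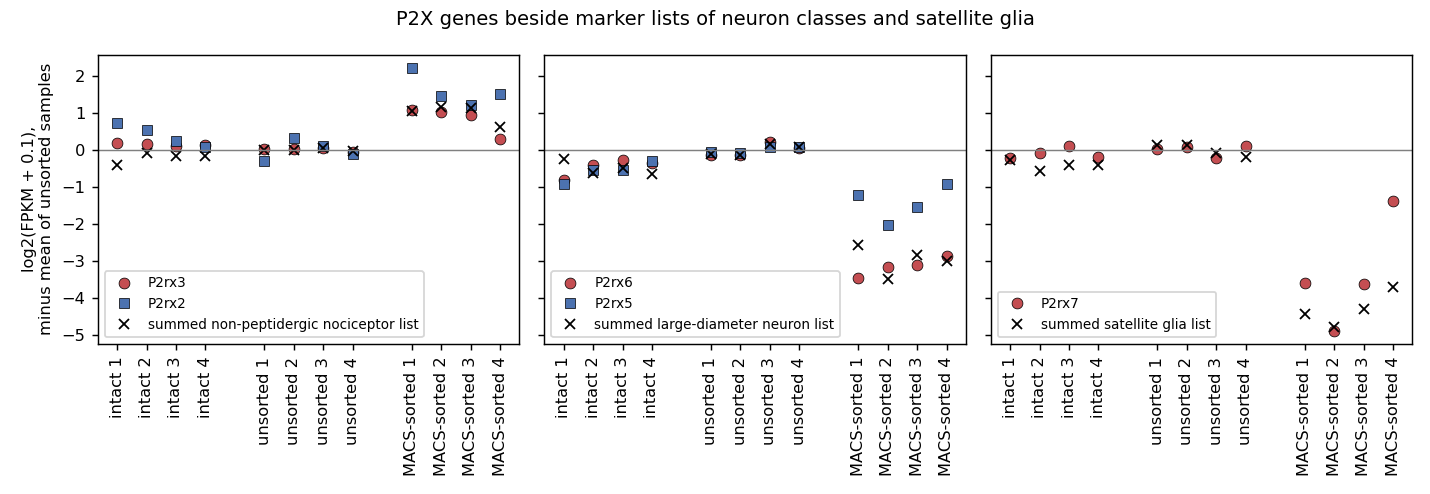
Level of P2rx3 and P2rx2 beside the summed non-peptidergic nociceptor list (left), P2rx6 and P2rx5 beside the large-diameter neuron list (middle), and P2rx7 beside the satellite glia list (right), in each of the 12 samples. The vertical axis is log2(FPKM + 0.1) minus the mean of the 4 unsorted samples; P2rx2 lies above the list and P2rx5 above its list in the MACS-sorted samples, and P2rx7 is highest among them in replicate 4.

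The genes most like each member were found by the root mean square difference of log2(FPKM + 0.1), centred per gene, over the 12 samples, among 8260 other genes averaging 5 FPKM or more. For P2rx3 these were Prkcq, a protein kinase C (0.077), Cd55, a complement regulator (0.089), and Rgs3, a regulator of G protein signalling (0.098). Prkcq had means of 31.3, 27.3 and 49.8 FPKM and Cd55 118, 108 and 208 FPKM in intact, unsorted and MACS-sorted samples. For P2rx2 the nearest were Tmem158 (0.272), Osmr, the oncostatin M receptor subunit (0.281), and Klf5, a transcription factor (0.286), so that no gene followed P2rx2 as closely as Prkcq followed P2rx3. For P2rx4 they were Pvrl3 (0.081), Aagab (0.086) and Smurf1 (0.088). Of these, Aagab and Smurf1 passed as lower in MACS-sorted than in unsorted samples (log2 differences −0.29 each, limma adjusted p = 0.035 and 0.048). They were picked for their likeness to P2rx4 in these same samples, so their passing is no support for a decrease of P2rx4. For P2rx5 they were Ell2 (0.202), Slc22a23 (0.207) and Htr3b, a serotonin-gated channel subunit (0.209). For P2rx6 they were Sh3pxd2b (0.184), Kcna1, a potassium channel (0.216), and Vsnl1, a neuronal calcium sensor (0.234), with means of Kcna1 at 53.8, 80.5 and 9.41 FPKM in the same order. For P2rx7 they were Angptl4 (0.235), Vwa1 (0.310) and Cald1, an actin-binding protein (0.337). The samples share their preparation, so likeness of this kind follows from any common difference between the 3 preparations.

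The other genes of ATP signalling were taken as 5 lists of 42 genes, of which 12 had a mean under 1 FPKM over all 12 samples. In MACS-sorted against unsorted samples 30 were tested and 22 passed, 9 higher and 13 lower, where 18.8% of all tested genes were higher and 27.7% lower. Several of the genes that fell to near 0 were tested only because of their level in unsorted samples, so the counts describe the lists and nothing more. The medians below stand against −0.04 over all genes tested.

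Among 8 P2Y receptor genes, which encode G protein-coupled receptors for nucleotides, 3 were tested, with 1 higher and 2 lower (median −0.57). P2ry1, an ADP receptor, was at 25.2, 50.3, 44.2 and 60.8 FPKM in MACS-sorted and at 21.5, 20.7, 16.9 and 15.6 FPKM in unsorted replicates 1 to 4. The groups did not overlap, and the mean was 2.42-fold higher after sorting (log2 difference 1.21, SE 0.24, limma, Benjamini-Hochberg adjusted p = 0.0025). P2ry2, a receptor for ATP and UTP, was lower, at 3.67 against 5.46 FPKM on average. P2ry12, a microglial and platelet ADP receptor that is also found on satellite glia, had 1.66 to 3.06 FPKM in unsorted samples and 0.0337, 0, 0 and 0.0627 FPKM in MACS-sorted replicates 1 to 4.

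Of 7 genes for ATP storage and release, 4 were tested and 2 passed, both lower (median −0.15). Gja1, the gap junction protein connexin 43 of glia, fell 4.43-fold from 15.5 to 3.50 FPKM, and Lrrc8a, a volume-regulated anion channel subunit, fell 1.22-fold. The pannexin channel genes did not pass, with log2 differences of 0.16 for Panx1 and −0.0036 for Panx2. Slc17a9, the vesicular nucleotide transporter, stayed at or below 0.149 FPKM in every sample, and Calhm1 was listed at 0 in all 12.

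Of 10 genes for nucleotide breakdown, 8 were tested, with 2 higher and 5 lower (median −1.21). Both that rose encode enzymes that turn AMP into adenosine at the cell surface of nociceptors: Acpp, prostatic acid phosphatase, rose 2.47-fold to 261 ± 25.2 FPKM and Nt5e, CD73, rose 2.43-fold to 32.3 ± 7.77 FPKM (SD, n = 4 each). Acpp was at 227 to 286 FPKM in MACS-sorted and at 99.5 to 113 FPKM in unsorted samples (log2 difference 1.30, SE 0.086, limma, Benjamini-Hochberg adjusted p = 2.9e-06). Entpd3, which hydrolyses ATP on neurons, did not differ detectably (43.6 against 43.5 FPKM, log2 difference 0.0016, 95% interval −0.17 to 0.18). Lower were the ATP-hydrolysing enzymes Entpd2, known from glia, 21.3-fold, Enpp1 60.3-fold and Entpd1, known from immune and endothelial cells, 2.78-fold. Enpp2, a relative of Enpp1 that mainly acts on lysophospholipids, fell 1.65-fold. Alpl, an alkaline phosphatase, fell 49.4-fold from 4.93 to 0.0998 FPKM. Without MACS-sorted replicate 4 these folds were 87.8 for Alpl, 90.5 for Enpp1 and 34.6 for Entpd2.

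Of 9 genes for adenosine receptors and handling, 7 were tested, with 5 higher and 1 lower (median 0.62). Adora1, the inhibitory A1 receptor, was at 34.3 against 28.0 FPKM, and Adora2b at 3.31 against 1.60 FPKM. Adk, adenosine kinase, rose 1.56-fold, Slc29a1, a nucleoside transporter, 1.70-fold and Ada, adenosine deaminase, 2.88-fold, the last with a wide spread from 2.35 to 6.90 FPKM in MACS-sorted samples. Slc29a2, a second nucleoside transporter, fell 2.595-fold, and Adora2a did not pass. Of 8 genes whose products are known or proposed partners of P2X subunits, 8 were tested, with 1 higher and 3 lower (median −0.10). Vsnl1, whose product VILIP-1 binds P2X2, was at 8.83, 5.55, 10.5 and 9.88 FPKM in MACS-sorted and 77.2, 76.3, 86.3 and 80.7 FPKM in unsorted replicates 1 to 4, 9.22-fold lower. Tmem163, a zinc transporter that interacts with P2X receptors, fell 5.41-fold and Apbb1 1.33-fold, whereas Myh9 rose 1.48-fold. Pirt, a membrane protein of nociceptors reported to act on P2X3, was at 263 ± 44.2 against 218 ± 4.15 FPKM (SD, n = 4 each) and did not pass (log2 difference 0.25, 95% interval −0.01 to 0.52), and neither did Cask, Cdk5 or Ap2m1.

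**Figure D5:**
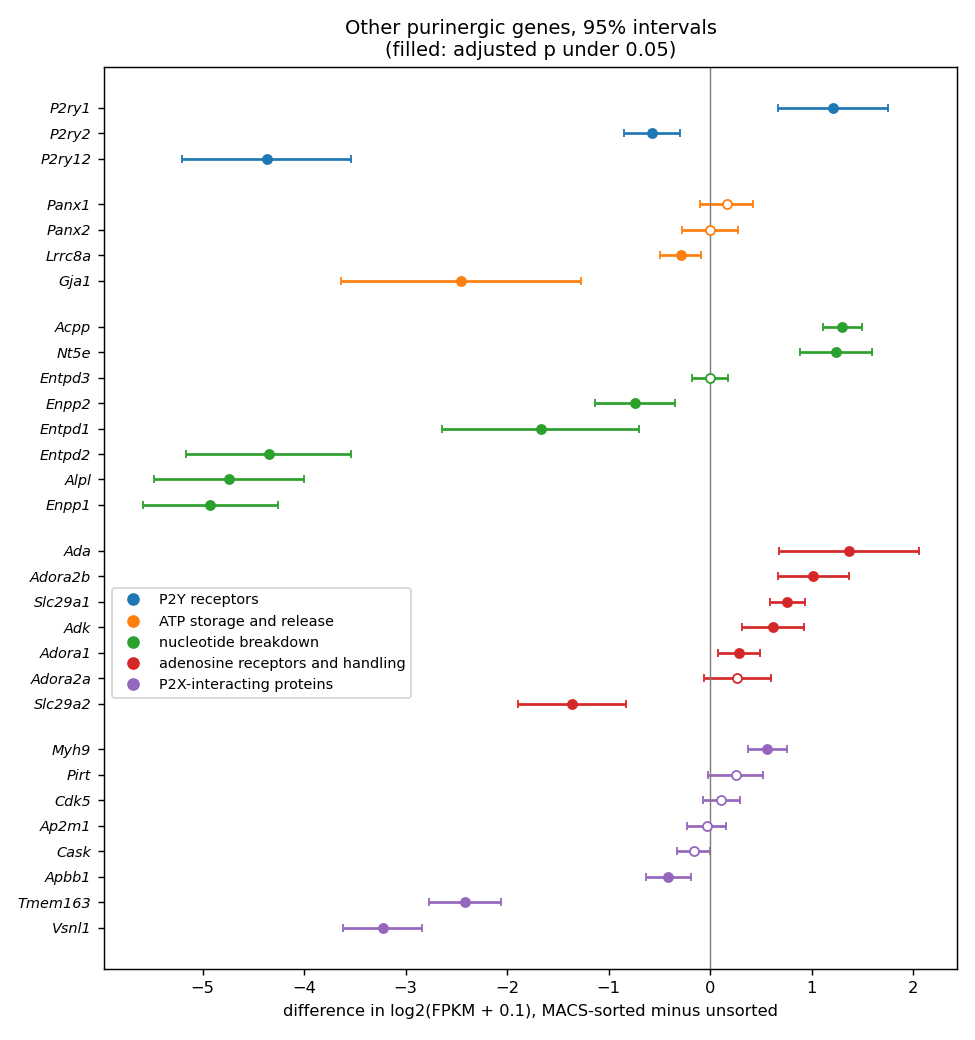
Difference in mean log2(FPKM + 0.1) between MACS-sorted and unsorted samples (horizontal axis) for the 30 tested genes of the 5 purinergic lists, coloured by list, with 95% limma intervals from 4 samples a group. Filled points have an adjusted p under 0.05; P2ry1, Acpp, Nt5e and 6 of the adenosine genes, 5 of them filled, lie right of 0, and P2ry12, Entpd2, Alpl, Enpp1 and Vsnl1 are beyond −3.

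Between unsorted and intact samples 14 of these genes passed, 11 higher and 3 lower after dissociation, where 14.8% of all tested genes were higher and 7.79% lower. They were 3 of 4 tested genes for ATP storage and release (higher), 6 of 8 for nucleotide breakdown (4 higher, 2 lower), 2 of 7 for adenosine (1 in each direction) and 3 of 8 P2X partners (higher). Of 4 tested P2Y genes 0 passed with limma, and 1 had an unadjusted p under 0.05. Tmem163 rose 1.60-fold and Vsnl1 1.43-fold, while Nt5e fell 1.44-fold and Ada 2.00-fold. Between MACS-sorted and intact samples 18 passed, 9 in each direction, where 14.1% of all tested genes were higher and 20.6% lower. They were 3 of 3 tested P2Y genes (1 higher, 2 lower), 2 of 4 for ATP storage and release (1 in each direction), 7 of 8 for nucleotide breakdown (3 higher, 4 lower), 3 of 7 for adenosine (higher) and 3 of 8 P2X partners (1 higher, 2 lower).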

How the data were processed

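RNA of 12 DRG samples (4 intact, 4 unsorted, 4 MACS-sorted) was compared. Reads were aligned by the authors with TopHat2 to mm10, lanes merged with SAMtools and levels estimated with Cufflinks 2.1.1, and the deposited values are FPKM for 24490 gene rows. No counts are given, so depth was estimated from the spacing of low values at an assumed fragment length of 150 bases (13400000 to 19300000 fragments), and no interval rests on it. Whether the estimation used strand is not given in the sources used here. FPKM depend on the authors' mapped totals, so an abundant transcript class in a sample lowers all other values.

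Differences were tested two-sided with limma 3.58.1 (R 4.3.3) with an intensity trend on log2(FPKM + 0.1), in place of the study's CuffDiff, for genes averaging 1 FPKM or more in the 8 samples compared, with Benjamini-Hochberg adjustment over all of them. The pseudocount understates changes of low genes. Ratios and P2rx1 were compared by exact permutation tests (numpy 2.4.6). Errors are SDs. Nothing in the labels shows how samples of a group were kept apart, so p-values measure the spread between these samples. On simulated data, 96.5% of 200 genes changed by a log2 value of 1 were recovered among 12212, and 8 of 12012 unchanged genes passed. Between unsorted replicates the median absolute log2 difference was 0.0528 to 0.133. Between MACS-sorted replicates it was 0.127 to 0.254, and between intact replicates 0.0763 to 0.322. Whether the recovery and the passing of unchanged genes hold at the spread of MACS-sorted or intact samples was not tested.

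Members are P2rx1 to P2rx7. They, the 5 purinergic lists and the 12 marker lists were chosen with earlier results of these data known. Named genes are the members, the listed genes and the 3 genes nearest in pattern to each member averaging 1 FPKM or more. Alternatives were other pseudocounts, filters, scalings and fits, a replicate block and leaving out samples. Leaving out MACS-sorted replicates 3 and 4 together was chosen after seeing the data. Gene coordinates are those of the deposited table, counted from 1, with strand and exons from GENCODE.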

Additional observations from a re-analysis of the deposited data

Results flagged for a closer look

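The P2X members, the purinergic genes averaging 1 FPKM or more and the log2 ratio of P2rx3 to P2rx2 gave 38 items. Of these, 6, all of them genes, had a sample whose gap to its group was beyond the Dixon limit for 4 samples. Chance gives about 1 in 20 groups, and 114 groups were examined. MACS-sorted replicate 4 had 1.499 FPKM of P2rx7 against 0.0410 to 0.243 FPKM in replicates 1 to 3. The same sample had 197 FPKM of Pirt against 278 to 294 FPKM. Intact replicate 1 had 3.37 FPKM of Ada against 2.43 to 2.56 FPKM in the other intact samples. For Cask it had 7.65 FPKM against 9.66 to 9.92 FPKM, for Entpd3 24.5 FPKM against 32.3 to 33.5 FPKM, and for Panx2 11.96 FPKM against 16.6 to 17.2 FPKM.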

How the results depend on the processing

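Of 338 values of single P2X members under the alternatives, 317 kept their direction and their side of the threshold, 18 no longer passed, 2 newly passed and 1 changed sign: P2rx4 between unsorted and intact samples, which ranged from −0.048 to 0.035 with 1 sample left out, the positive value without intact replicate 3. A filter at a mean of 5 FPKM, which drops most members from the test, left 2 passing members in MACS-sorted against unsorted, 1 in unsorted against intact and 1 in MACS-sorted against intact samples, and 13 and 9 purinergic genes in the first 2 comparisons. The 2 members that passed between unsorted and intact samples became 0 with all 12 samples in one fit and with the red blood cell list removed, 1 with quantile normalization and 1 with unsorted replicates 1 and 2, the most alike pair of samples, averaged; the cause was not tested. The purinergic count in that comparison was 7 in the fit of all 12 samples. Leaving out 1 sample gave 1 to 3 members there (3 without intact replicate 1, 1 without intact replicates 2 or 4 or any unsorted sample), and 579 to 885 called genes against 873, the lowest without unsorted replicate 3. Across all alternatives the log2 ratio of P2rx3 to P2rx2 kept its direction and never passed, but 1 comparison alone could not have passed in any of them.

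Scaling moved the balance of all called genes. Higher genes were 39.5% of the calls in MACS-sorted against unsorted samples and 52% after quantile normalization, 60.8% in unsorted against intact samples, 50.5% after quantile normalization and 44.3% without the red blood cell list, and 41.3% in MACS-sorted against intact samples and 51.4% after quantile normalization. Quantile normalization put the median of all genes at 0.10 and 0.13 in the comparisons with MACS-sorted samples, and the P2rx3 difference from unsorted samples, 0.82 there, and the others that passed remained on the same side of these medians. Replicate numbers did not pair the samples (correlation of deviations −0.143 to 0.067), and with the replicate block 5, 2 and 5 members passed and 2507, 899 and 2229 genes were called, while the paired ratio tests gave p = 0.125, 0.25 and 0.125 by exact sign flips, whose smallest possible p is 0.125. Unknown mapped counts and 4 samples a group limit what low members can show.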
